A study of Mus musculus with 6 samples.

Results

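The Slc25 genes encode the mitochondrial carriers, the family of transporters that move nucleotides, phosphate, amino acids, organic acids, cofactors and metal ions across the inner membrane of the mitochondrion. A carrier alternates between a state open to the cytosol and a state open to the matrix, and most carriers exchange one solute for another. In skeletal muscle they are known for exporting ATP to the contractile apparatus, bringing in phosphate, and shuttling the reducing equivalents of glycolysis and the acyl groups of fat into the matrix.

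The 47 Slc25 genes found on the array were examined, chosen by symbol from the accession of each probe, without regard to their signal. They are 47 of the 21368 genes whose symbols could be assigned, and were measured by 56 of the 55681 probes of the array, with more than 1 probe for 9 genes. No symbol could be assigned to 27350 probes, so carrier probes among these could have been missed. RNA came from the gastrocnemius, a calf muscle made largely of fast fibres, of old male mice at 25 months (3 samples) and of young male mice at 13 weeks (3 samples). The strain is not given in the sources used here, no treatment is named, and the labels do not say that each sample came from its own animal, so p-values measure the spread between these samples. Each sample was hybridised to 1 single-colour Agilent array.

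Of the 56 probes, 47, for 39 genes, exceeded background clearly on 3 or more of the 6 arrays and were tested. The other 9 probes were Slc25a2, Slc25a18, Slc25a21, Slc25a31, Slc25a43, Slc25a48, Slc25a54 and both probes of Slc25a53, of which 8 were above background on no array and Slc25a2 on 1 old and 1 young array. None of the 47 was below background on every array of an age, and none was saturated. Values below are log2 signals relative to the 75th percentile of the same array, and a difference is old minus young with its standard error from limma. Signals of different probes are not comparable as levels, and fewer cells of a type and less RNA per cell cannot be told apart in whole muscle.

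Facts of the whole series bear on these values. Between 49.9% and 54.8% of gene spots were well above background. The negative controls of old replicate 1 read 61.3, where the other arrays read 51.9 to 55.1, and the slope of its spike-in probes was 0.840, where the others had 0.925 to 0.941. Old replicates 2 and 3 lay in a row of the slide without any young array. The median difference over all 28010 probes tested was -0.07. The muscle label held, since all 8 fibre marker genes, Acta1, Ckm and Myh4 among them, were well above background on all arrays.

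The comparison asked which carrier transcripts differ between old and young muscle. Most carriers had slightly lower values in old muscle, and no single carrier passed the test. Of the 47 probes, 37 had a negative difference (78.7%), against 57.6% of all probes tested, and the median was -0.23, against -0.07. The differences ran from -1.24 for Slc25a25 to 0.43 for Slc25a45, and 36 of the 47 were smaller than 0.5 in size. By class, the medians ran from -0.47 for the aspartate, glutamate and oxoglutarate carriers and -0.34 for the cofactor and nucleotide carriers to 0.12 for the citrate and dicarboxylate carriers and 0.18 for the ATP-Mg/phosphate carriers.

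In limma's moderated test, 0 of the 47 probes had a Benjamini-Hochberg adjusted p under 0.05, where 0.264% of all probes did (0.196% higher and 0.0678% lower in old muscle). At an unadjusted p under 0.05 there were 7 probes of 6 genes (14.9%), against 14.2% of all probes, so that share was close to the background. All 7 had lower values in old muscle, where 8.46% of all probes did, and 0 had higher values, where 5.71% did. In 11 probes of 9 genes (23.4%) every old array lay below every young array, against 14.3% of all probes. In 0 probes did every old array lie above every young array, against 7.4% of all probes. A fit blocked on slide row compares only old replicate 1 with the young arrays, and there 32 of the 47 differences were negative and their median was -0.14, against -0.06 over all probes. The counts also rest on few arrays. Without young replicate 2 the 7 lower probes became 3 (6.38%, against 4.89% of all probes). Without young replicate 1 they became 4 (8.89%, against 6.50%), and without old replicate 3 also 4 (8.70%, against 4.68%). Without old replicate 1, old replicate 2 or young replicate 3 they became 8 (17.4% each, against 11.1%, 7.51% and 5.67%). Leaving out old replicate 1 gave 19 separated probes (41.3%, against 24.3% of all), leaving out old replicate 2 gave 17 (37.0%, against 22.3%), and leaving out young replicate 1 gave 17 (37.8%, against 21.5%).

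**Figure D1:**
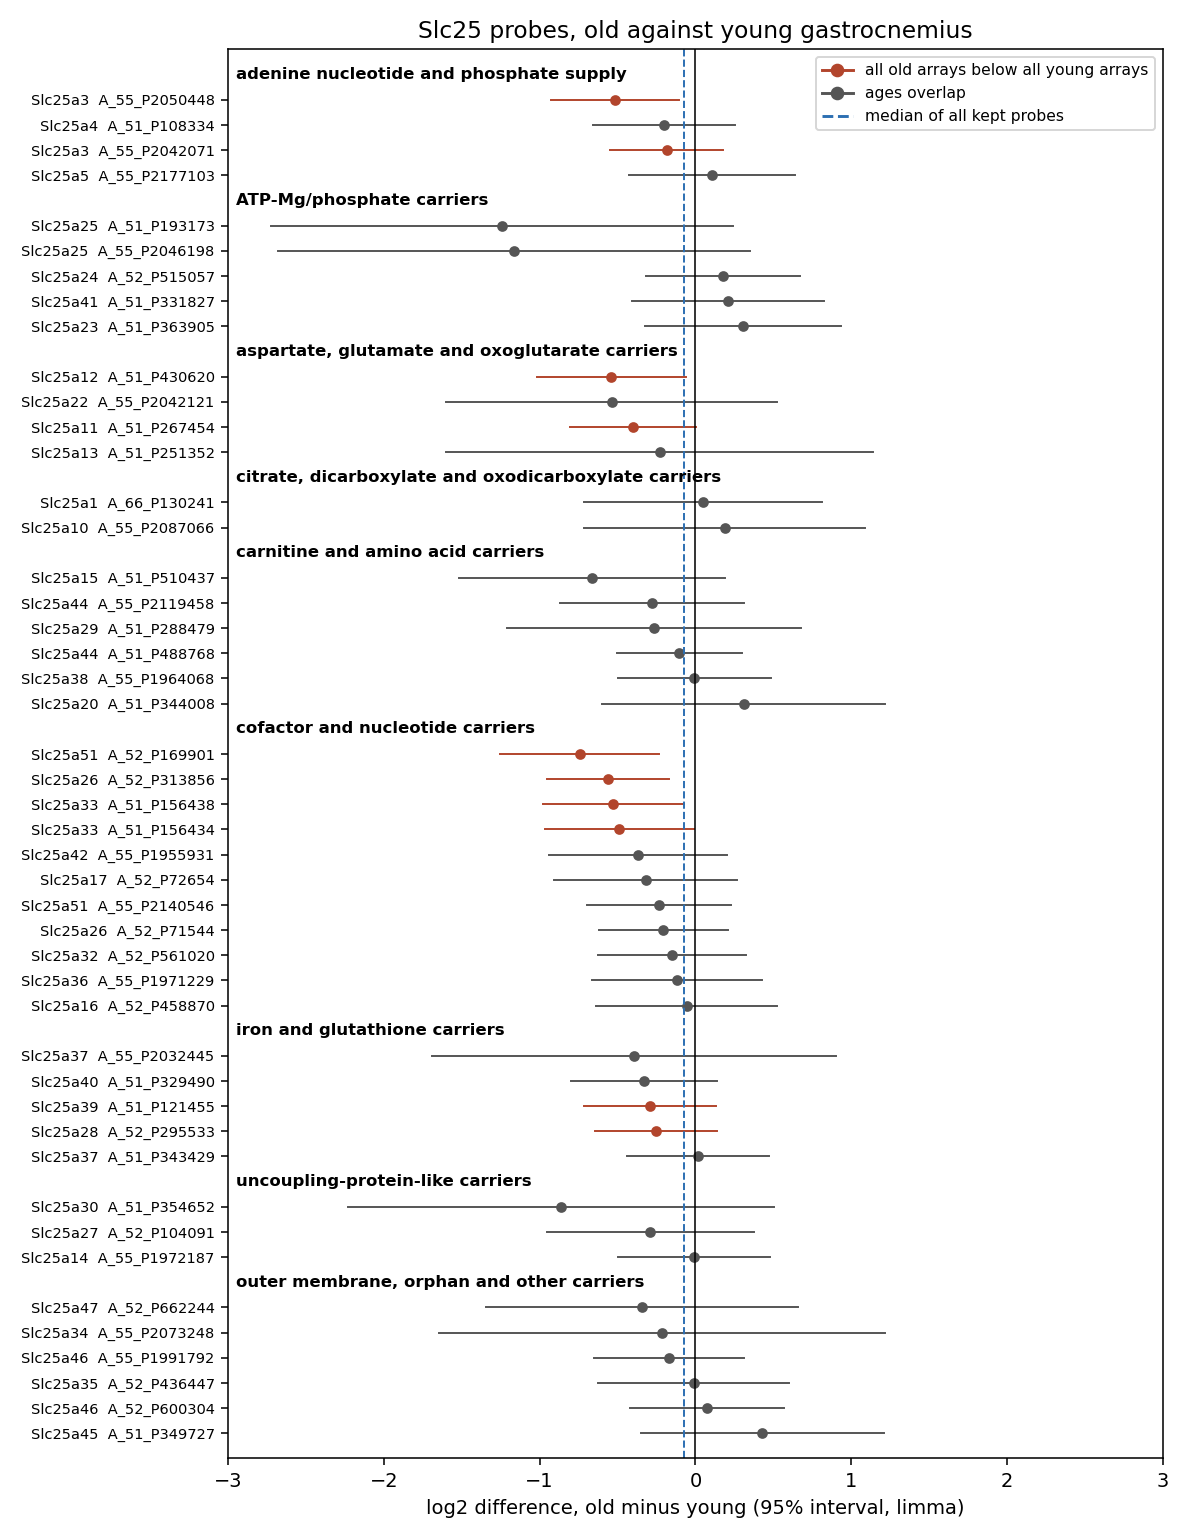
Log2 difference, old minus young, of 46 of the 47 Slc25 probes tested, by role of the carrier, with its 95% interval from limma. Red marks the 10 probes whose old arrays all lie below the young ones, and the dashed line is the median of all probes tested, -0.07. The 9 probes not above background on enough arrays are not drawn.

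The arrays of one age were not alike. When each probe was centred on its mean over the 6 arrays, the median deviation of the Slc25 probes was -0.04, -0.06 and -0.21 on old replicates 1, 2 and 3, against 0.08, 0.20 and 0.11 on young replicates 1, 2 and 3. Over all probes tested it was -0.02, -0.003 and -0.05 on the old arrays, against 0.01, 0.02 and 0.11 on the young ones. Old replicate 3 lay lowest and young replicate 2 highest for the carriers, and on young replicate 3 the carriers and all probes had the same median to 2 decimals. Old replicate 3 held the lowest value of 17 of the 47 probes and old replicate 1 of 13, while young replicates 1, 2 and 3 held the highest of 10, 13 and 12.

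**Figure D2:**
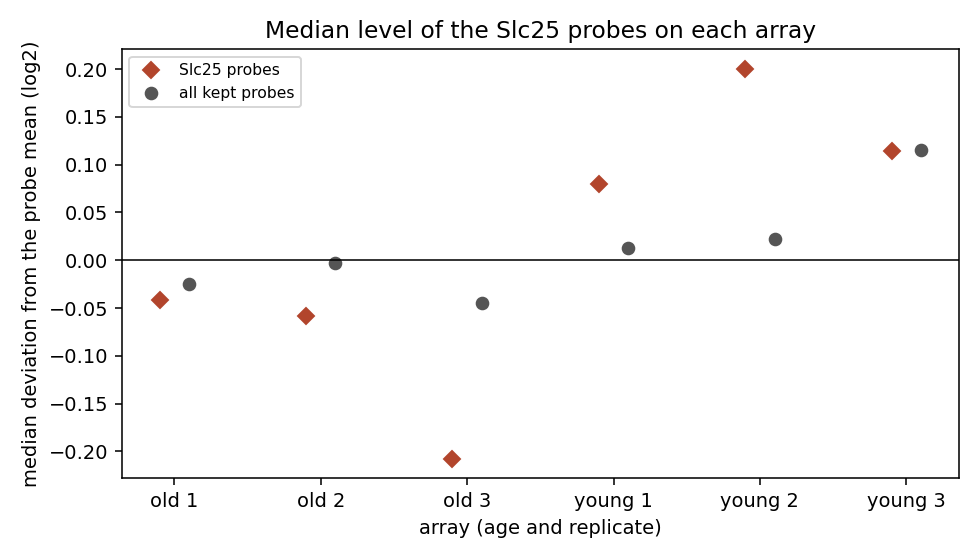
Median deviation, on the log2 scale, of the 47 Slc25 probes (diamonds) and of all 28010 probes tested (circles) from each probe's own mean, for each array. The Slc25 medians lie between -0.21 and -0.04 on old arrays and between 0.08 and 0.20 on young arrays.

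Carriers were mostly bright probes. When all probes tested were divided by brightness into 4 equal groups, from dim to bright, the Slc25 probes numbered 5, 9, 16 and 17. Their median differences were 0.19, -0.28, -0.25 and -0.26, against -0.04, -0.06, -0.05 and -0.11 for all probes of the same groups. The negative values were thus seen in the 3 brighter groups, in 7 of 9, 13 of 16 and 15 of 17 probes.

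Fibre markers had negative differences too. All 9 muscle fibre probes had negative differences (median -0.20), with 0 passing and the lowest p for Myh1 (-0.35 ± 0.19), Tnnt3 (-0.29 ± 0.16) and Mb (-0.22 ± 0.18), and the summed signal of that list, in units of the 75th percentile, ran from 3782 to 4955 in old muscle, against 4575 to 5618 in young muscle. In the list of 7 slow fibre genes all 9 probes were negative (median -0.60). Of these, 4 were lower at an unadjusted p under 0.05, where 8.46% of all probes were, and 0 passed the adjustment. The summed signals were 681 to 1045 in old muscle, against 1136 to 1535 in young muscle. Among the slow fibre genes, Atp2a2 had -0.76 ± 0.23, Tnnt1 -0.60 ± 0.22 and Myl3 -0.60 ± 0.23. Their part in the carriers' values was not tested.

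The cofactor and nucleotide carriers held the lowest p-values of the family. All 12 probes of their 9 genes had negative differences (median -0.34, from -0.74 to -0.06). In 5 of them every old array lay below every young one, where 14.3% of all probes did. The class holds 5 of the 7 Slc25 probes lower at an unadjusted p under 0.05, where 8.46% of all probes were lower. Both probes of Slc25a33 are in each of these counts.

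Slc25a51 encodes a carrier whose human counterpart moves NAD into mitochondria. One probe, A_52_P169901, read 4.11, 4.23 and 3.93 in old muscle, against 4.94, 4.47 and 5.10 in young muscle. It had the largest difference of any carrier whose ages did not overlap, -0.74 ± 0.21, or 1.67-fold lower (adjusted p = 0.235). The other, A_55_P2140546, read 2.33, 2.17 and 1.82 in old muscle, against 2.19, 2.45 and 2.39 in young muscle, and its ages overlapped (-0.23 ± 0.19). The gap of 0.51 between these probes was the widest of the 8 genes with more than 1 tested probe.

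Slc25a26 imports S-adenosylmethionine, the methyl donor. Probe A_52_P313856 read 1.82, 2.01 and 1.92 in old muscle, against 2.38, 2.39 and 2.65 in young muscle, a difference of -0.56 ± 0.16 (adjusted p = 0.240) with no overlap. Its other probe gave -0.21 ± 0.17, with young replicates 2 and 3 below old replicate 2.

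Slc25a33 carries pyrimidine nucleotides and was the gene whose probes were closest to each other. Probe A_51_P156438 read 3.70, 3.43 and 3.20 in old muscle, against 4.01, 4.08 and 3.82 in young muscle (-0.53 ± 0.19, adjusted p = 0.306). Probe A_51_P156434 read 0.67, 0.50 and 0.13 in old muscle, against 1.07, 0.91 and 0.78 in young muscle (-0.49 ± 0.20, adjusted p = 0.347). Neither probe overlapped between the ages, and both had old replicate 3 lowest. Blocked on slide row, the differences were -0.27 and -0.25. Slc25a36, the other pyrimidine nucleotide carrier, overlapped (-0.12 ± 0.23).

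The remaining cofactor carriers overlapped between the ages. The differences were -0.37 ± 0.24 for Slc25a42 and -0.06 ± 0.25 for Slc25a16, which are linked to coenzyme A transport. They were -0.15 ± 0.20 for the folate and FAD carrier Slc25a32 and -0.32 ± 0.25 for the peroxisomal carrier Slc25a17. The lowest adjusted p of these was 0.520, for Slc25a42.

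The carriers that supply ADP and phosphate for ATP synthesis had differences from -0.52 to 0.11 over 4 probes (median -0.19). Slc25a3, the phosphate carrier, has a pair of probes with differences of the same sign and unequal size. Probe A_55_P2050448 read 4.35, 4.70 and 4.51 in old muscle, against 4.91, 5.11 and 5.10 in young muscle (-0.52 ± 0.17, 1.43-fold lower, adjusted p = 0.277). Probe A_55_P2042071 read 6.25, 6.44 and 6.34 in old muscle, against 6.51, 6.58 and 6.48 in young muscle (-0.18 ± 0.15, adjusted p = 0.605). In both, every old array lay below every young array. The second probe also had one of the narrowest spreads within an age, at percentile 1.53 of all probes tested.

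Slc25a4 encodes the adenine nucleotide translocator of heart and muscle, which exchanges matrix ATP for cytosolic ADP. It was read from 10 spots per array, at 9.13, 9.51 and 9.49 in old muscle, against 9.38, 9.58 and 9.76 in young muscle. The ages overlapped, and the difference was -0.20 ± 0.19 (95% interval -0.66 to 0.25, adjusted p = 0.654). It was -0.08 without old replicate 1 and -0.11 without young replicate 3. Slc25a5, the translocator of many other tissues, read 2.48, 2.32 and 3.03 in old muscle, against 2.58, 2.53 and 2.38 in young muscle. Only old replicate 3 stood above the young arrays, and the difference of 0.11 ± 0.22 turned negative without that array (-0.10). Slc25a31, the translocator known from testis, was below background on every array. The translocators resemble each other in sequence, and the probe sequences were not used here, so cross-hybridisation between them was not tested.

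Of the carriers that work with the malate-aspartate shuttle, which brings the reducing equivalents of glycolysis into the matrix, both muscle members were separated by age. Slc25a12, the calcium-regulated aspartate-glutamate carrier aralar, read 7.11, 6.68 and 6.50 in old muscle, against 7.32, 7.35 and 7.24 in young muscle. Old replicate 1 lay nearest the young arrays, and the difference was -0.54 ± 0.20, or 1.46-fold lower (95% interval -1.02 to -0.06, adjusted p = 0.315). Blocked on slide row it was -0.20. Slc25a11, the oxoglutarate carrier that returns malate to the matrix, read 7.09, 7.31 and 7.02 in old muscle, against 7.39, 7.58 and 7.64 in young muscle (-0.40 ± 0.17, unadjusted p = 0.0523, adjusted p = 0.357). The liver form of the aspartate-glutamate carrier, Slc25a13, and the glutamate carrier Slc25a22 overlapped between the ages, with -0.23 ± 0.58 and -0.54 ± 0.45. Slc25a18, the other glutamate carrier, was below background.

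The shuttle's enzymes gave no separation. The 4 probes of Mdh1, Mdh2, Got1 and Got2, the malate dehydrogenases and aspartate aminotransferases, had a median of -0.18, 0 passed the test in either direction and 0 were separated by age. Mdh2 had -0.21 ± 0.18, Got2 0.31 ± 0.30 and Mdh1 -0.17 ± 0.21.

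**Figure D3:**
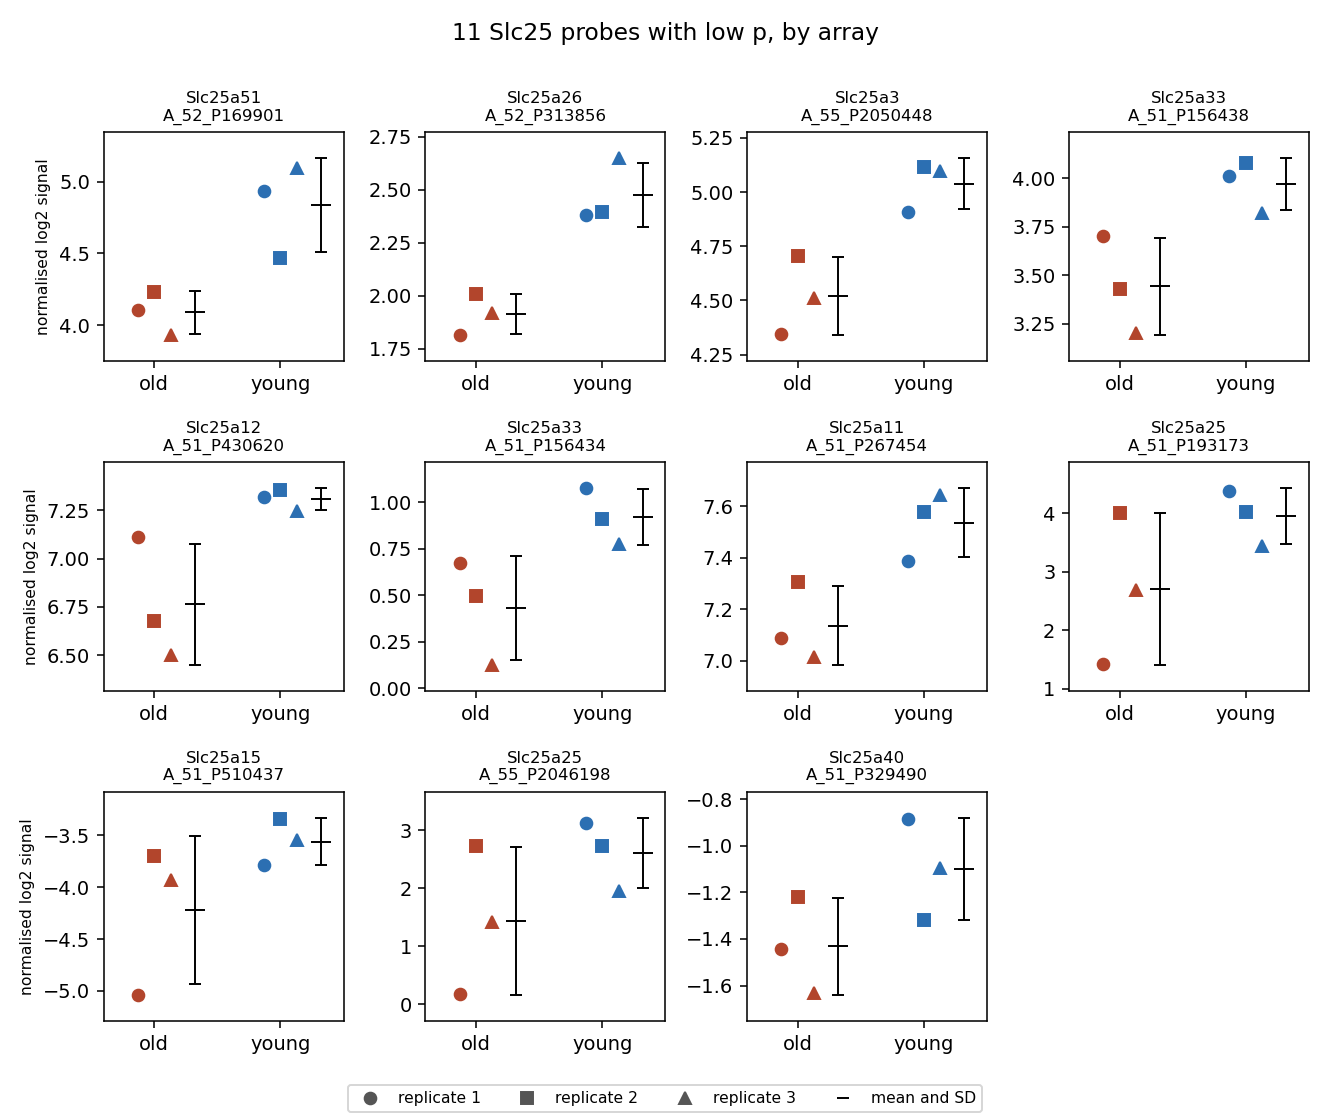
Normalised log2 signal of 11 of the 12 Slc25 probes with the lowest p, for each array, old left and young right; symbols mark the replicate, and bars the mean and SD of 3 arrays. The old and young points do not overlap in the first 7 panels, from Slc25a51 to Slc25a11, and they do in the panels of Slc25a25, Slc25a15 and Slc25a40.

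Slc25a25 had the largest difference and the widest spread of the family. It belongs to the ATP-Mg/phosphate carriers, which change the adenine nucleotide content of the matrix and several of which respond to calcium. Probe A_51_P193173 read 1.42, 4.01 and 2.69 in old muscle, against 4.38, 4.02 and 3.44 in young muscle. Probe A_55_P2046198 read 0.17, 2.72 and 1.42 in old muscle, against 3.13, 2.73 and 1.94 in young muscle. The probes ordered the arrays alike, and in each old replicate 2 lay within the young range while old replicate 1 lay far below every other array. The differences were -1.24 ± 0.62 (95% interval -2.73 to 0.24, adjusted p = 0.419) and -1.16 ± 0.64 (adjusted p = 0.450). Without old replicate 1 they were -0.60 and -0.53, without old replicate 2 they were -1.89 and -1.81, and with the slide row as a block, where only old replicate 1 counts as old, they were -2.53 and -2.43.

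Immediate early and clock genes also differed among these arrays. Of 13 probes of that list (median -1.20), 6 had lower and 4 higher values in old muscle at an unadjusted p under 0.05. Over all probes the shares were 8.46% and 5.71%, and 0 of the list passed the adjustment. Dbp had -2.37 ± 0.55, Atf3 2.94 ± 0.78 and Arntl 1.17 ± 0.21. The nuclear receptor Nr4a1, chosen after its values were seen, read 5.33, 6.65 and 6.14 in old muscle, against 7.51, 6.94 and 7.41 in young muscle. All other genes of that list ordered the old arrays otherwise than Slc25a25. Nr4a1 ordered them as Slc25a25 did, but not the young ones. Among these Nr4a1 was lowest on replicate 2 and Slc25a25 on replicate 3. The part of these genes in the Slc25a25 values was not tested.

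The other ATP-Mg/phosphate carriers had positive differences. They were 0.18 ± 0.21 for Slc25a24, 0.31 ± 0.27 for Slc25a23 and 0.21 ± 0.26 for Slc25a41, and the ages overlapped in each. On the young arrays Slc25a23 exceeded background on 2 of 3, and Slc25a41 did so on 2 of 3 old and 1 of 3 young arrays.

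Promoter sequence of 300 bases, 250 before and 50 after the annotated start, was taken from RefSeq on build GRCm38.p6 and was found for 36 of the 47 genes. Those not found include Slc25a2, Slc25a26, Slc25a27, Slc25a32, Slc25a35, Slc25a37, Slc25a41, Slc25a44, Slc25a46 and Slc25a51. The windows of 3 genes are shown, because Slc25a25 varied most between arrays and because Slc25a3 and Slc25a33 were separated by age in both of their probes. The Slc25a25 window is the one of its 3 starts that holds a cyclic AMP response element, at chr2:32424017-32424316 on the minus strand. Of its windows not shown, the one at chr2:32451421-32451720 holds an ETS motif instead, and the other holds none of the motifs searched. The windows of Slc25a3 and Slc25a33 lie at chr10:91123918-91124217 and chr4:149774218-149774517, both on the minus strand. Capitals mark motif letters found on either strand, which are a cyclic AMP response element (TGACGTCA) in Slc25a25, an ETS motif (CCGGAAG) in Slc25a3 and an E-box (CACGTG) in Slc25a33.
Slc25a25: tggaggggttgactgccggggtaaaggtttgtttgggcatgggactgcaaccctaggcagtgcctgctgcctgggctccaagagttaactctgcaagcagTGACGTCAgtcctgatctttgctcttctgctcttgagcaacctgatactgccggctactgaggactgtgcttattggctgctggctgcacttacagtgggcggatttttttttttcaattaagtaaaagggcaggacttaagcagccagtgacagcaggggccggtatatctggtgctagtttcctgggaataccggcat
Slc25a3: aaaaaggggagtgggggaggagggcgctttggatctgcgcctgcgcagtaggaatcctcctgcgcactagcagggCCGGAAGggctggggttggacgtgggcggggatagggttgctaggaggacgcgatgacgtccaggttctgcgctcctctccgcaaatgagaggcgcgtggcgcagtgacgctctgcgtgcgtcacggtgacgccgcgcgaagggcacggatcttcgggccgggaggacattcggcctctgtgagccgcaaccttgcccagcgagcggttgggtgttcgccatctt
Slc25a33: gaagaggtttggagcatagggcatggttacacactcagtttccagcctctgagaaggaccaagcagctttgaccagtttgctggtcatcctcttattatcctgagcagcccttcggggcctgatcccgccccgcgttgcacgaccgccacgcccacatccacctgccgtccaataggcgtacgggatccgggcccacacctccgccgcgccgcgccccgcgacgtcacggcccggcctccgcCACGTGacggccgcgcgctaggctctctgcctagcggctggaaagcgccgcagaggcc

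The motifs were searched on both strands, and no hit overlapped another. The cyclic AMP response element was in 2 of the 36 genes (5.56%, Slc25a25 and Slc25a36), against 2.03% of the 27025 genes in the promoter table. The E-box was in 7 genes (19.4%), against 8.09%, and the ETS motif in 7 genes (19.4%), against 9.93%. An exact 10-letter form of the NRF1 motif was in 0 of the 36, against 1.07%, and the ERR motif (TCAAGGTCA) in 0, against 0.466%. The Slc25 windows were richer in G and C than the table as a whole, with a median of 59.3%, against 52.7%. These matches describe letters in the windows and say nothing of binding.

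Among carnitine and amino acid carriers, 5 of 6 probes had negative differences (median -0.18), and the ages overlapped in each. Slc25a20, the carnitine-acylcarnitine carrier of fatty acid oxidation, read 2.41, 1.99 and 2.03 in old muscle, against 2.49, 2.03 and 0.99 in young muscle. Young replicate 3 alone was low, and the difference of 0.31 ± 0.38 (adjusted p = 0.734) was -0.12 without it, 0.18 without old replicate 1 and 0.64 without young replicate 1. Slc25a15, an ornithine carrier, read -5.04, -3.70 and -3.93 in old muscle, against -3.79, -3.35 and -3.54 in young muscle (-0.66 ± 0.36, adjusted p = 0.448). Old replicate 1 was its lowest array and was not well above background, and without it the difference was -0.26. The branched-chain amino acid carrier Slc25a44 gave -0.28 ± 0.25 and -0.10 ± 0.17 by its probes, and Slc25a29, which carries basic amino acids, gave -0.27 ± 0.40. The enzymes of the carnitine shuttle had a median of -0.46 over 7 probes. Of these, 2 were lower at an unadjusted p under 0.05, where 8.46% of all probes were, and 0 passed in either direction. Cpt2 had -0.55 ± 0.17, Cpt1b -0.45 ± 0.23 and Crat -0.18 ± 0.16.

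The citrate carrier Slc25a1, which exports citrate for lipid synthesis, had a difference of 0.05 ± 0.32, and the dicarboxylate carrier Slc25a10 had 0.19 ± 0.38. Slc25a10 was near background, well above it on 1 of 3 old and 2 of 3 young arrays. The adipocyte list, another source of lipogenic transcripts in muscle, had a median of -0.07 over 7 probes with 0 passing and Lep not above background, and its summed signal was 33.4 to 53.4 in old muscle, against 47.4 to 52.0 in young muscle. Cfd had -0.36 ± 0.21, Plin1 -0.50 ± 0.32 and Adipoq -0.26 ± 0.23. The part of fat cells in the Slc25a1 value was not tested.

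Iron and glutathione carriers had negative differences in 4 of 5 probes (median -0.29). Slc25a28, the mitoferrin of most tissues, read 3.73, 3.67 and 3.40 in old muscle, against 3.89, 3.85 and 3.84 in young muscle, without overlap (-0.26 ± 0.16, adjusted p = 0.510). Slc25a39, a glutathione carrier, was also separated, at 0.13, 0.33 and 0.23 in old muscle, against 0.37, 0.44 and 0.76 in young muscle (-0.29 ± 0.18, adjusted p = 0.492). Its relative Slc25a40 read -1.44, -1.22 and -1.63 in old muscle, against -0.88, -1.32 and -1.10 in young muscle, where young replicate 2 lay below old replicate 2 (-0.33 ± 0.20).

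Slc25a37, the mitoferrin that is abundant in red cell precursors, was even between the ages. Probe A_51_P343429 read 2.81, 3.10 and 3.32 in old muscle, against 2.93, 3.05 and 3.19 in young muscle (0.02 ± 0.19, 95% interval -0.44 to 0.47). The dimmer probe A_55_P2032445 gave -0.39 ± 0.55, with young replicate 2 at -0.31 and every other array between -2.40 and -1.55. Slc25a38, a glycine carrier needed for haem synthesis, had -0.01 ± 0.21. Erythroid and neutrophil transcripts can both be carried into muscle by blood. All 5 erythroid probes had negative differences (median -1.22). Of these, 4 were lower at an unadjusted p under 0.05, where 8.46% of all probes were, and 0 passed the adjustment. The summed signals were 46.6 to 97.6 in old muscle, against 131 to 202 in young muscle. Hba-a1 had -1.22 ± 0.32, Hbb-b2 -1.22 ± 0.35 and Alas2 -1.28 ± 0.42. Among 5 neutrophil probes S100a8 and S100a9 rose by 4.79 ± 0.32 and 4.68 ± 0.31 on the log2 scale (adjusted p = 0.00616 for both). Retnlg had 3.43 ± 0.48 (adjusted p = 0.0619), but it was well above background on 3 old and 0 young arrays. It was tested only through its old arrays, and its difference rests on background readings in young muscle. Both probes of Camp had negative differences (-0.42 ± 0.15 and -0.32 ± 0.19, adjusted p = 0.306 and 0.489). The summed signal of the list was 13.9 to 20.9 in old muscle, against 0.711 to 1.20 in young muscle, and Ngp and Ltf were not above background. The part of these cells in the Slc25a37 signal was not tested. In the list of mitochondrial iron and haem genes 9 of 10 probes were negative (median -0.16) and 0 passed, with -0.34 ± 0.16 for Alas1 and -0.18 ± 0.17 for Iscu.

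Uncoupling-protein-like carriers had differences of -0.86 ± 0.58 for Slc25a30, -0.29 ± 0.28 for Slc25a27 and -0.01 ± 0.20 for Slc25a14. Slc25a30 read -1.12, -1.30 and -0.94 in old muscle, against 0.55, 0.37 and -1.70 in young muscle. Young replicates 1 and 2 thus lay far above all others, and young replicate 3 lay lowest of all. The adjusted p was 0.526, and the difference was -1.58 without young replicate 3 (adjusted p = 0.0926), -0.46 without young replicate 1 and -0.55 without young replicate 2. The true uncoupling proteins, which belong to the family under other names, had the same low array. Probe A_66_P108247 of Ucp3 read 0.69, 1.51 and 1.60 in old muscle, against 1.95, 2.46 and -0.01 in young muscle (-0.20 ± 0.63). The other Ucp3 probe, A_52_P380379, had a difference of the opposite sign (0.30 ± 1.02) and was also lowest on young replicate 3, at -0.85. Ucp2 read -0.87, -1.92 and -1.49 in old muscle, against -1.51, -0.50 and -2.65 in young muscle. With Mtch1 and Mtch2, outer membrane relatives of the carriers, these names gave 6 probes with a median of 0.03 and 0 passing, and Ucp1 was below background. The lowest p among them was that of Mtch2 (-0.12 ± 0.15).

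Among outer membrane, orphan and other carriers, 4 of 6 probes had negative differences (median -0.09), and the ages overlapped in each. Slc25a46, an outer membrane protein linked to mitochondrial fission, had -0.17 ± 0.20 and 0.07 ± 0.21 by its probes. Slc25a45 had 0.43 ± 0.33, with young replicate 3 at -3.21 and the other arrays between -2.12 and -1.92. Slc25a47 had -0.34 ± 0.42 and Slc25a35 -0.01 ± 0.26.

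Several carriers varied more between samples of one age than between ages. The spread within an age was above the 90th percentile of all probes for 7 of the 47 Slc25 probes, although the family's median spread, 0.27, was close to that of all probes, 0.29. Slc25a34, a carrier without an assigned substrate, read 4.94, 3.03 and 3.69 in old muscle, against 3.98, 5.06 and 3.26 in young muscle, and its difference was -0.21 ± 0.60. Slc25a13 read -1.04, -2.79 and -3.02 in old muscle, against -2.53, -1.30 and -2.33 in young muscle. In both, old replicate 1 and young replicate 2 were the high arrays. Slc25a22 read -2.38, -2.36 and -2.46 in old muscle, against -1.82, -0.92 and -2.84 in young muscle, so its old samples lay together inside a wide young range. The cause of this spread was not tested.

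**Figure D4:**
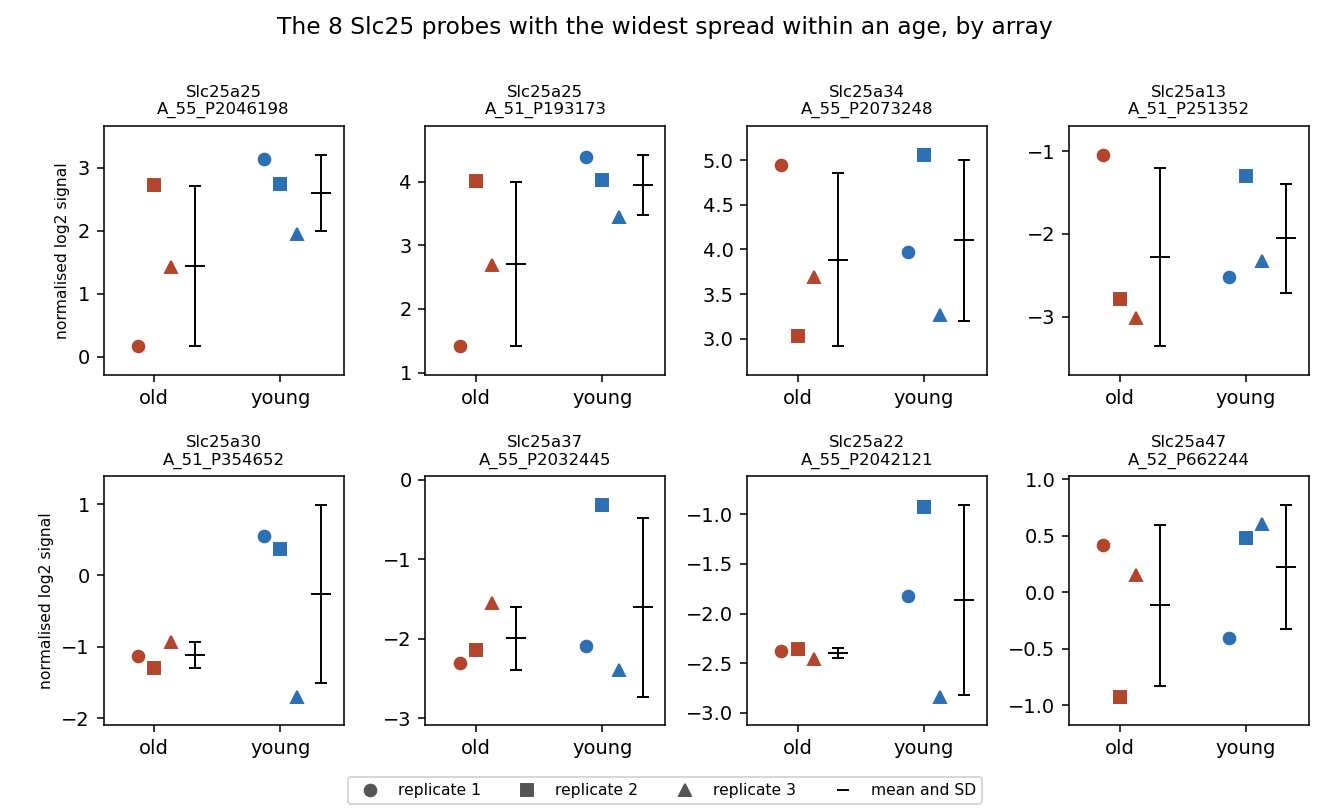
Normalised log2 signal of the 8 Slc25 probes with the largest pooled SD within an age, for each array, old left and young right; symbols mark the replicate and bars the mean and SD of 3 arrays. Old replicate 1 is low in both Slc25a25 panels, and young replicate 3 is low in the Slc25a30 panel at -1.70.

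Genes that work next to the carriers gave mixed values. The list of adenine nucleotide exchange partners, which holds porins, mitochondrial creatine kinases and ATP synthase subunits, had a median of -0.24 over 15 probes. In 8 of them every old array lay below every young one, where 14.3% of all probes did. In 1 every old array lay above, where 7.4% of all probes did. At an unadjusted p under 0.05, 3 were lower and 1 higher, against 8.46% and 5.71% of all probes, and 0 passed the adjustment. Ckmt2, the muscle mitochondrial creatine kinase that uses the ATP exported by Slc25a4, read 8.37, 8.18 and 7.99 in old muscle, against 8.997, 9.37 and 9.36 in young muscle (-1.06 ± 0.19, adjusted p = 0.113). The porin gene Vdac2 had -0.60 ± 0.20 and the ATP synthase gene Atp5c1 -0.54 ± 0.20.

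The import machinery that inserts carriers into the inner membrane had a median of -0.04 over 16 probes of 12 genes, close to that of all probes, with 0 passing. Timm13 had -0.43 ± 0.17, Timm10b -0.42 ± 0.21 and the lipid kinase Agk 0.39 ± 0.22. In the pyruvate and calcium entry list (median -0.09 over 10 probes, 0 passing) the mitochondrial pyruvate carrier genes Mpc2 and Mpc1 had -0.47 ± 0.16 and -0.34 ± 0.17, and the uniporter regulator Micu2 had 0.59 ± 0.26. The list of mitochondrial content genes had a median of -0.06 over 15 probes, 10 of them negative and 0 passing, with -0.53 ± 0.18 for the nuclear receptor Esrra, -0.30 ± 0.15 for citrate synthase (Cs) and -0.31 ± 0.17 for Uqcrc2. That these medians differ from the carriers' was not tested.

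Markers of other cell types of the muscle had differences of both signs. The macrophage list had a median of 0.48 over 10 probes, with summed signals of 23.4 to 28.3 in old muscle, against 19.9 to 22.0 in young muscle, and Cd163 was not above background. The fibro-adipogenic and tendon cell list had a median of -1.21 over 6 probes, with sums of 190 to 299.6 in old muscle, against 375 to 422 in young muscle. C1qb had 0.87 ± 0.17, Cd68 1.07 ± 0.27 and C1qc 0.53 ± 0.15, and 3 of the 10 macrophage probes, all of Csf1r, were negative (-0.19 to -0.07). In the fibro-adipogenic list the collagen gene Col1a2 had -1.56 ± 0.36, Tnmd -1.60 ± 0.41 and Scx 1.33 ± 0.40. The endothelial list had a median of -0.17 over 6 probes, with -0.81 ± 0.23 for Cdh5, -0.37 ± 0.19 for Kdr and 0.51 ± 0.57 for Pecam1. The Schwann cell list had a median of -0.04 over 8 probes, with 1.31 ± 0.18 for Mbp and -0.94 ± 0.18 for Sox10. None of the members of these lists passed the adjusted test, and their part in the carriers' values was not tested.

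**Figure D5:**
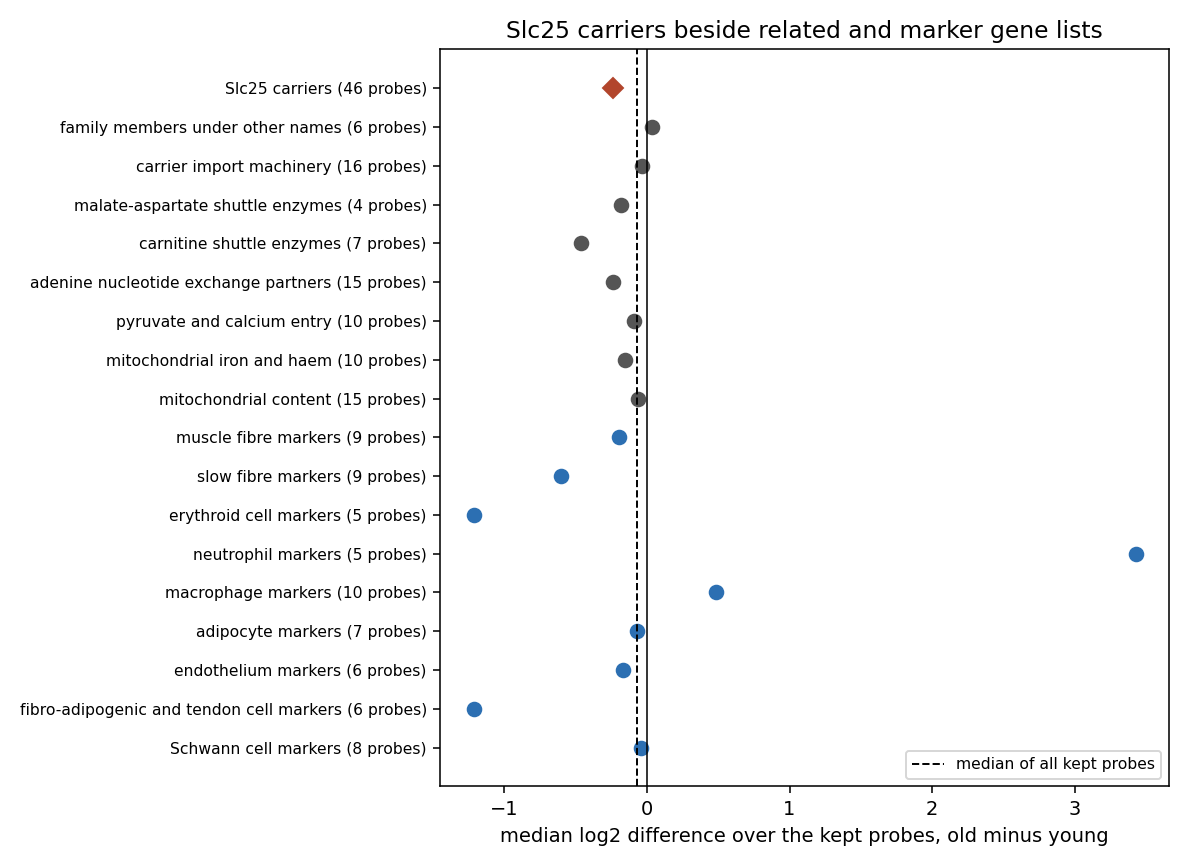
Median log2 difference, old minus young, over the tested probes of the Slc25 carriers (diamond, -0.23), of genes that work with them (grey) and of cell type marker lists (blue). The dashed line is the median of all probes tested, -0.07; the neutrophil list lies at 3.43 and the erythroid list at -1.22.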

How the data were processed

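The authors deposited 1 scanner table per array. Its intensity values had the local background subtracted and a spatial trend removed by Agilent Feature Extraction 11.0.1.1, per the file headers, although version 9.5 stands in the submitters' processing notes. The authors' deposited value table, used as an alternative, equals that intensity over the array's 75th percentile, times 100 and rounded.

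Control spots and outlier spots were left out. The log2 intensity minus the array's 75th percentile was averaged where a probe had several spots. Of 55681 probes, 28331 matched a RefSeq symbol (GRCm38.p6) by accession and 27350 kept the file's name. Probes well above background on at least 3 arrays (28010) were tested one by one with limma 3.58.1 in R 4.3.3 (lmFit and eBayes, two-sided), with Benjamini-Hochberg adjustment over all of them. With 3 arrays per age, the smallest p of an exact permutation test is 0.1. The test was checked on simulated data. Tables used Python 3.11.15 with pandas 2.3.3.

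Members and lists were chosen with earlier results of these data known. Values by array are given for the 12 Slc25 probes with the lowest p and for 10 carriers chosen by role, and for others named after their values were seen (Slc25a13, Slc25a22, Slc25a28, Slc25a34, Slc25a39, Ckmt2, Ucp2 and Ucp3); for each other list the 3 genes with the lowest p are named. A few of the items these rules name are not reported here. The number of arrays limits the precision. Alternatives were other normalizations, filters, summaries of probes, blocks, array weights and leaving out each array. Normexp used median spot signals.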

Additional observations from a re-analysis of the deposited data

How the results depend on the processing

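No Slc25 probe passed the adjusted test under any of the 18 alternatives, and the Slc25 median stayed below 0 in each. The median was -0.36 with median centring, where that of all probes was -0.20, and -0.14 with the slide row as a block; leaving out each array gave -0.30 to -0.18. Probes of all genes passing numbered 11 with no filter, 43 with probes above background on all arrays, 193 with array weights, 35 with the row block, and 2 to 225 with an array left out, against 74 as reported. Of the 74, 55 were higher in old muscle, against 38 of 61 with median centring, 47 of 79 with normexp, 17 of 35 with the row block and 105 of 225 without old replicate 1. The replicate block, which pairs arrays by number, gave 9 probes passing and 4 Slc25 probes lower at an unadjusted p under 0.05; the correlations of same-numbered arrays' deviations (-0.06, -0.28 and 0.02) give no sign of pairing. That count and the count of separated probes were added after seeing the data; with an array left out they ran from 3 to 8 and from 11 to 19. Slc25a5 turned to -0.0198 with median centring, -0.0223 with the row block and -0.10 without old replicate 3 (-0.10 to 0.25 with an array left out). Slc25a37 turned to -0.11 with median centring, -0.19 with the mean of probes, -0.25 with the row block, -0.10 without old replicate 3 and -0.04 without young replicate 1 (-0.10 to 0.15). Slc25a20 turned to -0.12 without young replicate 3 (-0.12 to 0.64). The other 15 of 18 named probes kept their sign throughout. The causes were not tested.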
